A study of Mus musculus with 20 samples.

Results

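Tenascin C is encoded in the mouse by Tnc (ENSMUSG00000028364.15), 1 of 55471 genes counted in total RNA of SIMS cells, a cell line from the mouse salivary gland. The gene was picked by its GENCODE symbol because of its low counts in cells edited in Zcchc8. Its level in those clones against wild type is therefore given as a description, without a test. The 20 libraries formed 5 groups of 4, all from cells grown in DMEM with 10% FBS. They were wild-type SIMS cells, cells with a CRISPR/Cas9 knockout (KO) of Btbd7, which the study used as the negative control, and Zcchc8 KO clones 1, 2 and 3. Each Zcchc8 KO clone is 1 edited line, and the labels give neither the position of an edit nor whether the Btbd7 KO cells came from 1 clone. They also do not say whether the 4 libraries of a group came from separate cultures, so every p-value measures the spread between libraries, which may be technical. ZCCHC8 is a subunit of the nuclear exosome targeting complex, which hands short-lived nuclear RNA to the RNA exosome. The question of the series was which transcription changes without it.

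Tenascin C is a large glycoprotein of the extracellular matrix whose arms are joined at their ends. It belongs to the matricellular proteins, which change how cells attach and signal rather than bear load. It is scarce in most healthy adult tissue and appears in the embryo, in wounds, in inflamed tissue and around tumours. In developing glands it is found where epithelium meets mesenchyme. It binds fibronectin and proteoglycans in the matrix and integrins and other receptors on cells, and matrix metalloproteinases cut it. Transforming growth factor beta, cytokines, growth factors and mechanical load can induce the gene.

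Tnc lies on the minus strand at chr4:63959785-64047015 of GRCm38. GENCODE M21 lists 4 transcripts. One starts at the outer end, 64047015, and the other 3 start at 64020725, which is 26290 bases further into the gene. RefSeq also places a start at 64047015. The 250 bases before that start, chr4:64047016-64047265, are shown because counts upstream of Tnc were deposited as a separate row. They are written 5′ to 3′ on the gene's strand, with a GC box (GGGCGG) and an octamer (ATGCAAAT) in capitals, as found by searching both strands.

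Tnc promoter: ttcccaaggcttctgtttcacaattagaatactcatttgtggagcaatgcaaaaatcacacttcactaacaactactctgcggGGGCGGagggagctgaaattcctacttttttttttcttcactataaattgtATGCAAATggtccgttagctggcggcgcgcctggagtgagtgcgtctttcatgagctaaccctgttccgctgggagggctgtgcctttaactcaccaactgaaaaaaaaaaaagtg

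The GC box starts 167 bases before the start site and occurs in 32.7% of 32851 RefSeq promoter windows of the same length. The octamer starts 116 bases before it and occurs in 1.6% of them. Searches for CCAAT and for the AP-1 letters TGANTCA found no match in this window. These letters occur in 33.8% and 6.75% of windows. A further RefSeq start lies at 64046936, and the TATA box letters TATATAA begin 29 bases before it. They occur in 3.04% of windows. Matches of letters describe the window and show no bound factor.

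Before the results, a few values of the whole series bear on them. Gene counts ran from 6833258 to 17771804 per library, and clone 1 was shallow throughout, at 6833258 to 7683444. Wild-type replicate 1 stood apart, with 14245 genes counted at least once, whereas its 3 fellow libraries reached 17442 to 18791. The Btbd7 gene averaged 99.2 ± 3.23 CPM (counts relative to 1000000 scaled counts in genes; SD, n = 4) in Btbd7 KO cells and 202 ± 7.64 in wild type. The Zcchc8 gene averaged 65.1 ± 2.92 CPM in wild type and 23.3 ± 1.35 in clone 2, but 60.3 ± 4.28 in clone 1 and 54.6 ± 4.84 in clone 3. Clone 1 did not pass the test for Zcchc8 RNA (log2 fold change -0.11, adjusted p = 0.291 with edgeR's quasi-likelihood test). A count over the whole gene cannot show a small edit, so the knockout of clones 1 and 3 is taken from the labels. All 9 epithelial markers were expressed, among them Cdh1, Epcam and Krt8. Of 10 markers of salivary acinar and duct cells, 3 passed the filter on low counts (Aqp5, Slc12a2 and Bhlha15), and Smgc, Bpifa2 and Klk1 had 0 counts in all libraries.

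Tnc was expressed in both control groups and nearly absent in the 3 Zcchc8 KO clones. The wild-type libraries, replicates 1 to 4, held 335, 491, 356 and 516 Tnc counts, or 21.8, 28.4, 26.6 and 30.3 CPM. The Btbd7 KO libraries held 689, 544, 316 and 381 counts, or 41.5, 36.1, 39.2 and 32.2 CPM. All 4 Btbd7 KO libraries thus lay above all 4 wild-type libraries. Clone 1 held 11, 5, 1 and 3 counts, or 1.43, 0.677, 0.145 and 0.382 CPM. Clone 2 held 0, 0, 3 and 3 counts, or 0, 0, 0.171 and 0.207 CPM. Clone 3 held 30, 20, 5 and 31 counts, or 2.14, 2.51, 0.637 and 2.11 CPM. The highest library of any clone, clone 3 replicate 2 at 2.51 CPM, lay far below the lowest control library at 21.8 CPM. The lowest library of clone 3, replicate 3, lay below the highest library of clone 1, and clones 1 and 2 also overlapped. A floor of 3 counts corresponds to 0.171 to 0.434 CPM, so clone 2 lay at or under the floor in all 4 libraries.

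**Figure D1:**
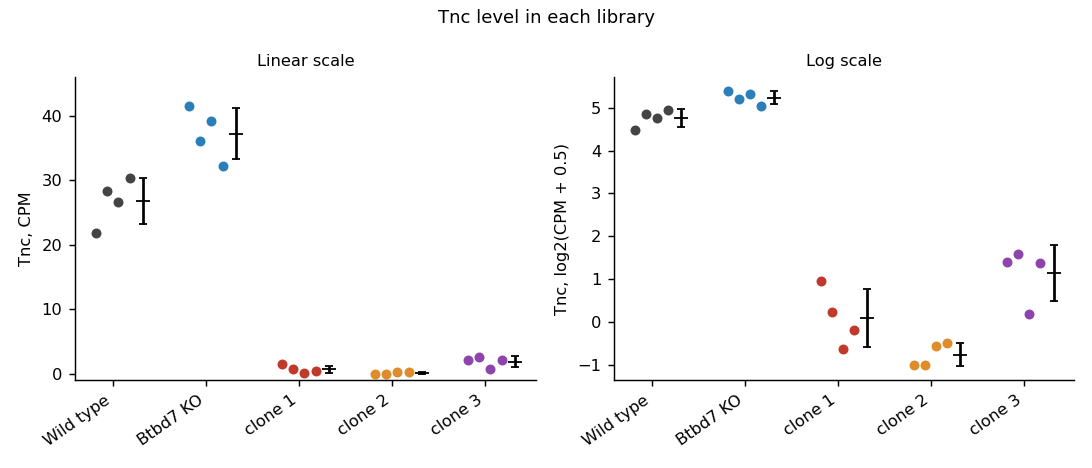
Tnc in each of the 20 libraries, in CPM on a linear scale (left) and as log2(CPM + 0.5) (right). Each point is 1 library, in the order of its replicate number, and the bar beside each group is the mean ± SD of 4 libraries. The control libraries lie between 21.8 and 41.5 CPM, and those of the 3 Zcchc8 KO clones (labelled clone 1 to clone 3) between 0 and 2.51 CPM.

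Group means (± SD, n = 4 each) were 26.8 ± 3.64 CPM in wild type and 37.3 ± 4.05 in Btbd7 KO. The clones averaged 0.659 ± 0.56 (clone 1), 0.0946 ± 0.11 (clone 2) and 1.85 ± 0.828 CPM (clone 3). Pooled over libraries and scaled, clone 1 kept 2.49% of the wild-type level (95% interval 1.52 to 3.86), from 20 counts against 1698. Clone 2 kept 0.418% (0.153 to 0.912), from 6 counts, and clone 3 kept 7.18% (5.71 to 8.91), from 86 counts. These exact intervals cover counting error only. The reads carried no molecular identifiers. In cell populations, fewer expressing cells and less RNA per cell cannot be told apart.

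On the log2 scale the fitted difference of the mean of the 3 clones from wild type was -5.63 (SE 0.22). It was -5.3 (SE 0.33) in clone 1, -7.78 (SE 0.38) in clone 2 and -3.81 (SE 0.26) in clone 3. Without wild-type replicate 1 the mean was -5.71. Among all 15297 genes tested, with 19.9% called lower, this was the fourth lowest value (rank 4), and the genes below it, Epb41l3, Lrch2 and Zfp449, averaged 6.8, 3.4 and 6.9 counts per library. Tnc averaged 187 counts. In wild type, Tnc was no abundant gene: 56.7% of tested genes had a lower mean CPM, and 41.7% had a lower mean CPM per kb of exon. Tnc there had 3.44 ± 0.468 CPM per kb (SD, n = 4).

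The residual level differed between the clones, a comparison that uses no wild-type library in its contrast. The joint test of the 3 clones gave an adjusted p of 7.95e-06 with edgeR's quasi-likelihood test, in a table where 28.5% of genes passed it. Clone 3 was above clone 2 by 3.97 on the log2 scale (SE 0.54, adjusted p = 3.9e-06, 8.46% of genes called higher). It was above clone 1 by 1.49 (SE 0.44, adjusted p = 0.0196, 6.78% called higher). Clone 2 minus clone 1 was -2.48 (SE 0.72, adjusted p = 0.0132, 10.2% called lower). The order from high to low was thus clone 3, clone 1, clone 2. Zcchc8 RNA was also lowest in clone 2, at -1.48 from wild type, but stood at -0.11 in clone 1 and -0.26 in clone 3, where Tnc was low as well. Clone 1 was the shallowest group and clone 2 the one with least Tnc.

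Btbd7 KO cells held 139% of the wild-type Tnc level (130 to 149, counting error only). The fitted difference was 0.48 on the log2 scale (SE 0.2), with an unadjusted p of 0.0247 and an adjusted p of 0.109 in edgeR's quasi-likelihood test, so it was not called. Of all genes tested, 7.73% were called higher in this comparison. The call depended on the settings: edgeR gave an adjusted p of 0.0362 without the filter on low counts and 0.0368 when fitted on these 2 groups alone. DESeq2, also run without that filter, gave 0.47 with an adjusted p of 0.0408. Against Btbd7 KO in place of wild type, Tnc in the clones stood at -6.1 (SE 0.21).

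Upstream RNA of Tnc was not detectable in most libraries. Promoter upstream transcripts (PROMPTs) are short-lived RNAs made just before a gene's start, usually in the reverse direction, and the nuclear exosome destroys them. They were counted in 19 libraries, without wild-type replicate 1, in a row named by the gene. The Tnc row held 0 counts in all 3 wild-type, all 4 Btbd7 KO and all 8 libraries of clones 1 and 2. Clone 3 held 3 counts in replicate 1 and 2 in replicate 4, or 0.213 and 0.136 CPM. The mean difference between the clones and wild type was 0.0291 CPM, and Btbd7 KO and wild type were both at 0. With counts in only 2 libraries, the planned exact permutation tests of both differences were uninformative, and nothing is read from them. At a floor of 0.171 to 0.434 CPM per library, lower levels would have been missed. How far a PROMPT row reaches, and from which of the annotated starts, is not given in the sources used here. The bases before each GENCODE start of Tnc lie within 8030451A03Rik, an annotated gene on the opposite strand. Its reads may not be separable from upstream RNA of Tnc. Of all PROMPT rows tested, 39.9% were called higher and 3.31% lower in the clones, with a median difference of 0.45 on the log2 scale. With scaling within the PROMPT table, 5054 of 16765 rows were called higher and 3665 lower, with a median of 0.02.

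One annotated gene overlaps Tnc. This is 8030451A03Rik, a transcript without a protein on the opposite strand (chr4:63979854-64149924), whose start lies in an intron of Tnc, 3286 bases from the next Tnc exon. Its gene row held 0 to 4 counts per library and was not tested. The row upstream of its start held more: 14, 9, 4 and 12 counts in Btbd7 KO and 1, 1 and 8 in wild-type replicates 2 to 4. Clone 1 held 3, 0, 0 and 0 counts there, clone 2 held 0 in all 4 libraries, and clone 3 held 0, 2, 2 and 2. In CPM this is 0.737 ± 0.236 in Btbd7 KO (SD, n = 4) and 0.199 ± 0.231 in wild type (SD, n = 3). Clone 1 had 0.0984 ± 0.197 and clone 3 had 0.16 ± 0.12 CPM (SD, n = 4 each). The row failed the filter, was singled out after its values were seen, and is a description only. The bases before that start lie within Tnc on the genome. Reads of Tnc and of this region cannot be told apart where counting ignores strand. The same holds where the reverse direction of 8030451A03Rik is counted, since that is the strand of Tnc. The strand setting is not given in the sources used here.

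None of the tested genes around Tnc was called lower for the mean of the clones against wild type, and 1 of them, Tnfsf15, was called lower against Btbd7 KO. GENCODE lists 30 neighbours within 1 Mb, 16 of them protein-coding. Of these 30, 14 had 0 counts in every library, 12 had at least 1 count but too few to test, with at most 14 in a library, and 4 were tested. All 4 lie at lower coordinates, beyond the 3′ end of Tnc. None of the 5 neighbours at higher coordinates was tested. For the mean of the clones, 0 of the 4 were called higher or lower with edgeR, against 16.2% and 19.9% of all genes. At an unadjusted p under 0.05 there were also 0 of 4, and DESeq2 called 0.

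Atp6v1g1, a subunit of the vacuolar proton pump 409 kb away, was the most abundant of the 4. It had 24.3 ± 1.59 CPM in wild type and 25.4 ± 2.64, 22.3 ± 1.4 and 25.5 ± 1.56 in clones 1, 2 and 3 (SD, n = 4 each). The fitted difference of the mean was 0 (SE 0.09, adjusted p = 0.988). Its SE was the smallest of the 4. Whrn, which encodes the scaffold protein whirlin, stood at 0.32 (SE 0.19, adjusted p = 0.198). Tmem268, a transmembrane protein gene, stood at 0.31 (SE 0.25, adjusted p = 0.361).

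The nearest tested gene was Tnfsf15, 215 kb away, a cytokine of the tumour necrosis factor superfamily. Wild type held 0, 11, 18 and 18 counts and Btbd7 KO held 51, 34, 4 and 28. Clone 1 held 4, 8, 3 and 10 counts, clone 2 held 9, 23, 14 and 19, and clone 3 held 2, 0, 0 and 2. Clone 3 was thus low, whereas clones 1 and 2 lay within the range of wild type in CPM or above it. The mean of the clones was -0.71 from wild type (SE 0.58, adjusted p = 0.363), and -1.11 (adjusted p = 0.0702) without wild-type replicate 1. Against Btbd7 KO it was -2.17 (adjusted p = 0.00201), so the call turned with the control. Clone 3 alone was called lower, at -2.99 (SE 0.92, adjusted p = 0.0159, 15.3% of genes called lower in clone 3). The clones differed (joint adjusted p = 0.00822). Clone 3 is the clone with the highest Tnc, so the 2 genes do not share an order among the clones.

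On the other side, beyond the 5′ end, no gene within 1 Mb had enough counts. The first tested gene there was Trim32, a ubiquitin ligase gene 1558 kb away inside Astn2, named here after its values were seen. Its gene row stood at -0.11 (SE 0.12, adjusted p = 0.48). Against Btbd7 KO the gene row stood at -0.32 (SE 0.12, adjusted p = 0.0293) and was called lower, as were 3401 of 15297 genes. Its PROMPT row held 0 to 4 counts in wild type, 0 to 2 in Btbd7 KO and 9 to 19 in the clones. That row stood at 3.49 on the log2 scale in the clones (SE 0.7), where 39.9% of all PROMPT rows were called higher. It passed the filter only through the clones, so this value is a description without a test.

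Of the neighbours' PROMPT rows, 3 were tested (Atp6v1g1, Tmem268 and Gm11216, a long noncoding RNA 28.5 kb before Tnc) and 13 held 0 counts throughout. With edgeR 0 of the 3 were called for the mean of the clones, against 39.9% higher and 3.31% lower of all PROMPT rows. At an unadjusted p under 0.05 there was 1. With DESeq2, which tested 17, 1 was called higher, where 8181 of all 40051 rows were called higher and 615 lower. So few rows allow no comparison with these shares. The Atp6v1g1 row stood at 2.26 (SE 1.04) for the mean and was not called. In clone 1 it was the 1 row of the 3 called higher, at 3.41 (SE 1.12, 39.3% called higher in clone 1). It held 8, 6, 7 and 1 counts in clone 1, 3 to 6 in clone 2 and 0 to 5 in clone 3. Wild type held 3, 0 and 0 counts, and Btbd7 KO held 0 throughout. The Atp6v1g1 row passed the filter only through clone 1, where it was high, so its differences are a description without a test. Leaving out wild-type replicate 2 moved its mean to 5. Gm11216 lies within 8030451A03Rik on the genome, so reads of both may not be separable in its PROMPT row. The Gm11216 row had 4, 0 and 15 counts in wild type and 25, 20, 12 and 6 in Btbd7 KO. It stood at 0.81 in the clones (SE 0.63, adjusted p = 0.318), at 2.33 (adjusted p = 0.0244) without wild-type replicate 4 and at -0.82 against Btbd7 KO. Tmem268's row stood at 0.18 (SE 0.25, adjusted p = 0.604).

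**Figure D2:**
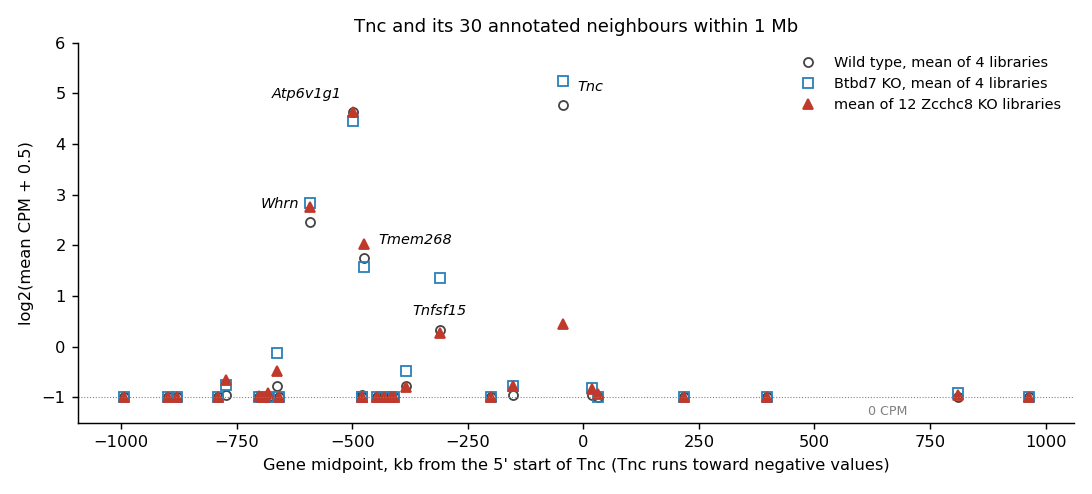
Mean level of Tnc and its 30 annotated neighbours within 1 Mb, as log2(mean CPM + 0.5), against the distance of each gene's midpoint from the outer 5′ start of Tnc in kb. Circles are wild type, squares Btbd7 KO (4 libraries each) and triangles the 12 Zcchc8 KO libraries, and the dotted line marks 0 CPM. Tnc is the only labelled gene whose triangle lies far below its circle. The other named genes are the 4 tested neighbours, all on the side of the 3′ end.

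Likeness to Tnc was ranked across the 20 libraries. Among 10776 genes with a mean of at least 50 counts, Pearson's r with Tnc on the log2(CPM + 0.5) scale was highest for Thbs1 (0.972), Smim3 (0.964), Sparc (0.956), Tars (0.951) and Xpo5 (0.948). It was lowest for 6330403L08Rik (-0.971), Gm9958 (-0.969) and Tcim (-0.966). The 20 points share the split between 8 control libraries and 12 Zcchc8 KO libraries, which sets most of their range. The coefficients rank genes and are no test. The genes were chosen on these libraries, so their differences between groups are given without a test.

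Thbs1 encodes thrombospondin 1, a matricellular glycoprotein that activates transforming growth factor beta. Wild type held 2850.1, 3072.2, 2745 and 2669.2 CPM, and all 12 libraries of the clones lay between 1621.7 and 2070.3 CPM. Wild type and the clones did not overlap, and the Btbd7 KO libraries were all at 3055.9 CPM or more. The fitted difference of the clones from wild type was -0.58 on the log2 scale (SE 0.05).

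Sparc encodes osteonectin, a collagen-binding matricellular protein. It had 315 ± 13.5 CPM in wild type, 423 ± 9.91 in Btbd7 KO, and 193 ± 14, 174 ± 11.3 and 219 ± 10.5 in clones 1, 2 and 3 (SD, n = 4 each). Btbd7 KO was highest and clone 2 lowest, as the choice of genes that follow Tnc favours. The fitted differences from wild type were -0.7 in the clones (SE 0.05) and 0.42 in Btbd7 KO (SE 0.06).

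The other genes of this group encode no matrix protein. Smim3 is a small membrane protein gene, Tars the gene of the threonyl-tRNA synthetase and Xpo5 that of exportin 5, which carries microRNA precursors out of the nucleus. They stood at -0.93 (SE 0.1), -0.74 (SE 0.06) and -0.36 (SE 0.05) in the clones. Smim3 too was lowest in clone 2, at 9.01 ± 0.733 CPM, against 13.1 ± 1.94 in clone 1, 14.2 ± 1.69 in clone 3 and 22.6 ± 1.32 in wild type. In the opposite direction, Gm9958 stood at 2.42 (SE 0.13). Tcim, which encodes a small regulator of transcription and immune response, stood at 1.38 (SE 0.06). 6330403L08Rik, annotated as antisense and overlapping Pdgfa, stood at 0.78 (SE 0.07). Reads of overlapping genes may not be separable in it.

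**Figure D3:**
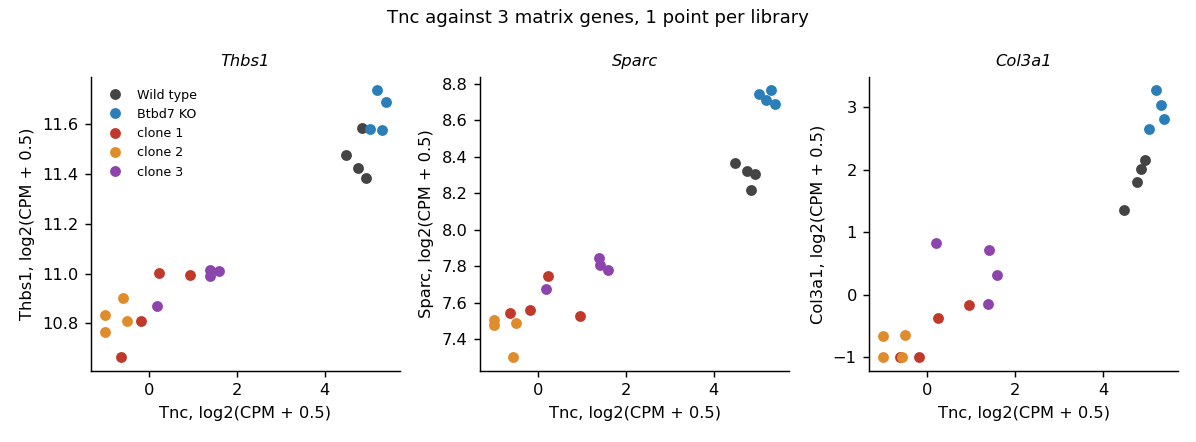
Thbs1, Sparc and Col3a1 against Tnc, all as log2(CPM + 0.5), with 1 point per library coloured by group. These genes were picked on the same libraries. The 12 libraries of the Zcchc8 KO clones (labelled clone 1 to clone 3) lie at the lower left of each panel and the 8 control libraries at the upper right. The Btbd7 KO libraries lie above the wild-type libraries in Sparc and Col3a1, and in Thbs1 the 2 control groups overlap.

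Genes that act with tenascin C were taken from 6 lists of 80 genes besides Tnc, of which 53 passed the filter on low counts. Of these 53, 8 were called higher and 21 lower for the mean of the clones, where 16.2% and 19.9% of all genes were. These shares are the background for each list below. The median log2 fold change was -0.12, against -0.01 over all genes. Clone 1 singly had 9 called higher and 15 lower, against 16.7% and 19.1% of all genes. Clone 2 had 9 and 24, against 16.1% and 16.2%, and clone 3 had 7 and 18, against 14% and 15.3%. In each of the 3 clones alike, 4 were called higher and 7 lower, where 7.64% and 5.82% of all genes were. In Btbd7 KO, 7 of the 53 were called higher and 10 lower, against 7.73% and 8% of all genes. Wild-type replicate 1 bears on this count: without it 11 were higher and 21 lower.

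Of the other tenascins, only Tnxb was tested. It encodes tenascin X, a tenascin of connective tissue. Its mean (± SD, n = 4 each) was 25.2 ± 11.1 CPM in wild type and 43.3 ± 10.6, 106 ± 10.8 and 15 ± 2.95 CPM in clones 1, 2 and 3. Tnxb rose in clones 1 and 2, by 0.77 (SE 0.22, adjusted p = 0.00695) and 2.06 (SE 0.21, adjusted p = 4.69e-08), and fell by 0.75 in clone 3 (SE 0.23, adjusted p = 0.0151). The order of the clones was thus the reverse of that of Tnc, with clone 2 highest and clone 3 lowest, and the difference among clones had an adjusted p of 1.85e-09. Tnr had 16 counts over all libraries and Tnn 0.

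Of 15 receptors, 10 were tested, 1 was called higher and 5 lower (all genes 16.2% and 19.9%), with a median of -0.15. Itga7, the laminin-binding integrin alpha 7, fell by 1.34 for the mean (SE 0.27, adjusted p = 0.000386) and in each clone. Its wild-type libraries held 6.5, 4.22, 2.47 and 3.46 CPM, and those of the clones 1.04 to 2.68 CPM, so the ranges overlapped at the lowest wild-type library. Without wild-type replicate 1, clone 2 lost its call (-0.69, adjusted p = 0.111). Against Btbd7 KO the change was -0.62 (adjusted p = 0.0947). Egfr, the epidermal growth factor receptor, which can bind the EGF-like repeats of tenascin C, fell by 0.39 (SE 0.06, adjusted p = 2.12e-05). It fell by 0.2, 0.29 and 0.68 in clones 1, 2 and 3, and clone 1 lost its call without wild-type replicate 1 (-0.09, adjusted p = 0.241). Itgb1, the common integrin beta 1 chain and the receptor gene with most counts per kb, was at 711 ± 46.9 CPM in wild type (SD, n = 4) and stood at -0.11 in the clones (SE 0.04, adjusted p = 0.0551). Itga9, the alpha chain of a known tenascin C receptor, had 1 count over all libraries, and Itgb3 had 3.

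Of 11 matrix partners, 5 were tested and 1 was called higher, Fn1. It encodes fibronectin, the main matrix ligand of tenascin C. Fn1 averaged 2915 ± 121 CPM in wild type, 5448.5 ± 166 in Btbd7 KO, and 3888.7 ± 253, 2633.1 ± 261 and 5057.5 ± 312 in clones 1, 2 and 3 (SD, n = 4 each). It rose by 0.36 for the mean of the clones (SE 0.05, adjusted p = 5.47e-06), but by 0.9 in Btbd7 KO (SE 0.06, adjusted p = 1.37e-10). Against Btbd7 KO the clones were lower, at -0.55 (adjusted p = 1.52e-09), so the direction turned with the control. Clone 2 was not called (-0.15, SE 0.06, adjusted p = 0.068), but without wild-type replicate 1 it was called lower (-0.17, adjusted p = 0.0167).

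Of 13 other matricellular genes, 7 were tested, 1 was called higher and 5 lower (all genes 16.2% and 19.9%), with a median of -0.58 against -0.01 over all genes. Thbs1 and Sparc, given above, were lower in each clone. Their place here and their likeness to Tnc rest on the same libraries. Fbln5, which encodes fibulin 5, a protein of elastic fibres, rose in each clone. Wild type held 0, 0.752, 0.598 and 0.293 CPM and the 12 libraries of the clones 3 to 5.82 CPM, without overlap. Btbd7 KO held at most 0.301 CPM. Fbln5 passed the filter on low counts only through the clones, where it was high, so its differences are a description without a test. The 1 call higher in this list is that of Fbln5. Its log2 fold change was 3.42 for the mean (SE 0.43). It was 3.56 (SE 0.48) in clone 1, 3.55 (SE 0.47) in clone 2 and 3.15 (SE 0.48) in clone 3.

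Of 10 proteases listed as cutting tenascin C, 3 were tested and 0 were called with edgeR, with 1 at an unadjusted p under 0.05. DESeq2 also called 0. The gene with that p was Mmp14, a membrane-bound matrix metalloproteinase and the protease with most counts per kb, at -0.09 (SE 0.04, unadjusted p = 0.0478, adjusted p = 0.108). It had 228 ± 5.82 CPM in wild type and 209 ± 11.4, 198 ± 11.4 and 236 ± 5.51 in clones 1, 2 and 3 (SD, n = 4 each). In clone 2 singly, edgeR called 2 of the 3 proteases lower, where 16.2% of all genes were. They were Mmp14 (-0.2, SE 0.06, adjusted p = 0.00591) and Adamts1. In clones 1 and 3, 0 were called.

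Of 28 signals and transcription factors upstream of Tnc, 27 were tested, 4 were called higher and 11 lower (all genes 16.2% and 19.9%), with a median of -0.12. Egr1, Fos and Jun were called higher in each clone, whereas Fosl1, another AP-1 gene, was called lower for the mean, at -0.3. Egr1, a zinc-finger factor, held 3.25, 6.71, 5.38 and 10.5 CPM in wild type and 18.8 to 31.8 CPM in the clones, without overlap. It rose by 1.82 (SE 0.2, adjusted p = 7.61e-08). Fos and Jun encode the partners of the AP-1 factor. Fos rose by 1.86 (SE 0.46, adjusted p = 0.00242), from 0 to 1.68 CPM in the wild-type libraries to 1.63 to 6.22 CPM in the clones. Against Btbd7 KO its change was 0.92 (adjusted p = 0.09). Jun rose by 0.76 (SE 0.08, adjusted p = 5.34e-08).

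Prrx1, a homeobox factor of mesenchyme that can activate Tnc, fell by 0.59 (SE 0.06, adjusted p = 2.83e-08). It had 169 ± 13.5 CPM in wild type and 112 ± 7.68, 136 ± 9.47 and 93.6 ± 7.18 in clones 1, 2 and 3 (SD, n = 4 each). The lowest clone was clone 3 for Prrx1 and clone 2 for Tnc. A link between Prrx1 and Tnc was not tested. Sox4, the most abundant of the list per kb, stood at 0.08 (SE 0.1, adjusted p = 0.569) and at 0.33 (adjusted p = 3.9e-06) without wild-type replicate 1.

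**Figure D4:**
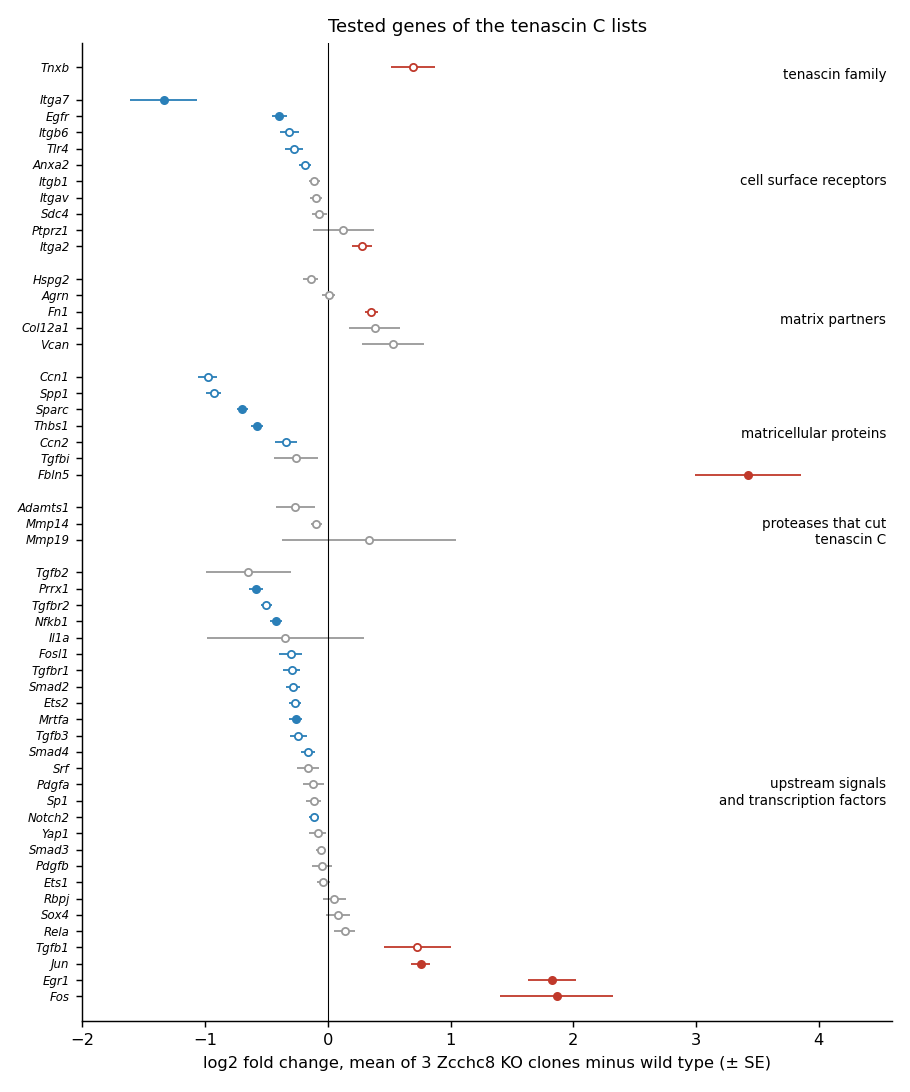
Log2 fold change from wild type, averaged over the 3 Zcchc8 KO clones, of the 53 tested genes in the 6 lists, with bars of 1 SE. Red marks genes called higher, blue genes called lower and grey genes not called, and filled points are genes called in the same direction in each clone. The highest value is that of Fbln5, at 3.42, and the lowest that of Itga7, at -1.34. Fbln5 passed the filter on low counts only through the clones.

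Markers of other cell types were read beside Tnc, which mesenchymal cells make in many tissues. Of 10 fibroblast and mesenchyme markers, 5 were tested, 1 was called higher and 2 lower in the clones (all genes 16.2% and 19.9%). Their summed level was 27 to 34.9 CPM in wild type, 30.7 to 42.3 in Btbd7 KO, 15.2 to 19.8 in clone 1, 43.2 to 49.1 in clone 2 and 27.3 to 34.2 in clone 3. Col1a1 (4277 counts over all libraries) and Zeb1 (2563) held the most counts of these markers, so the sum mainly follows those genes. Lum had 0 counts, Pdgfrb 2, Twist1 3 and Dcn 9 over all libraries. The collagen markers did not move together. Col1a1 was called higher in the clones, at 0.67, Col1a2 stood at 0.58 and was not called, and Vim, also not called, stood at 0.03. Zeb1, a mesenchymal transcription factor, was called lower, at -0.7. Col3a1, the type III collagen chain, named here after its values were seen, held 32, 61, 40 and 68 counts in wild type and 109, 138, 62 and 69 in Btbd7 KO. Clone 1 held 3, 2, 0 and 0, clone 2 held 1, 0, 0 and 2, and clone 3 held 16, 6, 10 and 6. Its fitted difference from wild type was -3.85 for the mean of the clones (SE 0.39). It was -4.15 in clone 1, -5.55 in clone 2, -1.84 in clone 3 and 1.21 in Btbd7 KO (SE 0.39). Col3a1 was singled out on these values, so they are a description without a test. Its groups stood in the same order as those of Tnc, which that choice favours. Of 7 myoepithelial and basal markers, 4 were tested, 1 was called higher and 1 lower (all genes 16.2% and 19.9%). Their sum was 258 to 402 CPM in wild type, 402 to 423 in Btbd7 KO, 167 to 217 in clone 1, 289 to 363 in clone 2 and 197 to 228 in clone 3. Trp63, a basal transcription factor, was the one called higher, at 1.01. Krt14, a basal keratin, was the one called lower, at -0.52, and was called higher in Btbd7 KO. Of the 9 epithelial markers, the keratins Krt7 (-0.59), Krt18 (-0.46) and Krt8 (-0.38) were called lower and 0 higher, against 19.9% and 16.2% of all genes. Their sum was 3522 to 5260.6 CPM in wild type, 4520.9 to 4676.4 in Btbd7 KO and 3298.8 to 4191.1 in the clones. Of 4 endothelial markers 0 were tested, at 0 to 1.15 CPM in sum. Of 4 leukocyte markers 2 were tested, with sums of 6.81 to 16.4 CPM, and Adgre1 had 0 counts. The part of other cell types in the Tnc level was not tested.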

How the data were processed

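The authors deposited raw read counts, whole numbers per gene and per PROMPT region. FastQC and STAR 2.7.3a are named in the submitters' processing notes. The counting tool, genome build, strand setting and rule for overlapping genes are not given in the sources used here. The labels' protocols name a stranded total RNA kit, TRIzol and CRISPR/Cas9. The main gene table held 20 libraries. The PROMPT table, and a second gene table with identical counts in the shared columns, held 19. No column lacked a library (0 left over). The 6 tables of regulatory features carry no positions and were not used here. Positions came from GENCODE M21 on GRCm38, which matched 54573 of 55471 gene identifiers with their version and 55230 without it. Promoter sequence came from RefSeq on GRCm38.p6, where Tnc matched 2 windows.

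The quasi-likelihood test of edgeR 4.0.16 (R 4.3.3) was fitted once to each table, with the 5 groups in the model. Scaling was by TMM over all genes of the gene table, for both tables, after which filterByExpr by group kept 15297 genes and 17655 PROMPT rows. A call is a Benjamini-Hochberg adjusted p under 0.05 over all of them. SE values were derived from the quasi-likelihood F. CPM values are counts relative to 1000000 TMM-scaled counts in genes, and 0.5 was added before taking log2. PROMPT counts of Tnc failed the filter. The exact permutation test planned for them was run and is not read, since nearly all were 0. Ratios of summed counts carry exact 95% intervals. On simulated data, 94.5% of 200 changed genes (99% of those changed 4-fold) and 81.5% of changed PROMPT rows (96%) were recovered, with 3.1% and 4.1% false calls. The simulation gave every feature the same spread, no difference among the clones and no outlying library. Its rates check the code and need not hold for these data, where 28.5% of genes differed among the clones. Replicates differed by more than counting noise in every group (chi-square over degrees of freedom from 2.89 to 78.6). Each therefore counted as 1 library.

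Gene counts per library ran from 6833258 to 17771804, and precision at low counts is limited by that depth. Tnc, the lists and the tests were chosen with earlier results of these data known. Named genes were Tnc, the 2 edited genes, the tested neighbours, in each list up to 4 members called in the same direction in every clone plus the one with most counts per kb, and the 5 highest and 3 lowest correlates of Tnc. Alternatives were DESeq2 1.42.0, dropping the filter, keeping features averaging 10 counts or more, dropping TMM, TMM within the PROMPT table, a fit of the compared groups only, a replicate block, the Btbd7 KO cells as control, lines as replicates, a window of 250 kb and leaving out each library.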

Additional observations from a re-analysis of the deposited data

Results flagged for a closer look

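The 3 Zcchc8 KO clones differed from each other in several of the genes described above, by edgeR's joint test with adjustment over all genes. The adjusted p was 7.95e-06 for Tnc and 3.81e-12 for Zcchc8, both lowest in clone 2. Among the genes of the lists it was 1.85e-09 for Tnxb, 8.05e-05 for Egfr, 0.00104 for Itgb1, 5.8e-11 for Fn1, 0.0003 for Sparc, 0.00231 for Mmp14 and 1.87e-05 for Prrx1. Sparc is also 1 of the genes most like Tnc, which were chosen on the same libraries. Among the others most like or unlike Tnc, the adjusted p was 0.000681 for Smim3, 0.0241 for Tars, 0.00671 for 6330403L08Rik and 0.000131 for Tcim. Tnc itself differed among the clones, so that choice favours such a difference. The values of these genes and of Sparc are a description and are not read as tests. The same holds for the collagen gene Col3a1 (0.000545), which was named after its values were seen. For the neighbour Tnfsf15 the adjusted p was 0.00822. Of all genes, 28.5% passed this test.

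Single libraries stood away from their group in 9 of 168 sets of 4 libraries, where chance gives about 5 in 100. In wild-type replicate 1, Egfr was at 241 CPM against 179 to 186 in the other 3. Sparc was at 214 CPM in clone 1 replicate 2 against 184 to 188, and at 157 CPM in clone 2 replicate 3 against 178 to 181. Egr1 was at 27.3 CPM in clone 1 replicate 1 against 19.9 to 20.4. The PROMPT row of Gm11216 was at 0.508 CPM in Btbd7 KO replicate 4 against 1.33 to 1.5. Around 8030451A03Rik, the transcript antisense to Tnc, the counts were near 0. Its gene row had 0.0579 CPM in wild-type replicate 2, 0.265 in Btbd7 KO replicate 2 and 0.138 in clone 2 replicate 4, and its PROMPT row had 0.393 in clone 1 replicate 1, each against 0 in the other 3 libraries. A set with counts in only 1 library is flagged in every case, so the chance rate does not apply to these sets.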

How the results depend on the processing

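The fitted Tnc difference of the clones from wild type stayed negative in every alternative run. It was -6.1 against Btbd7 KO, -5.19 with cell lines as replicates and -5.86 to -5.49 when 1 library was left out (-5.63 as reported). Tnc in Btbd7 KO (0.48, adjusted p = 0.109) was called without a filter (0.48, adjusted p = 0.0362), with DESeq2 (0.47, adjusted p = 0.0408) and with only the groups compared (0.48, adjusted p = 0.0368), and ran from 0.39 to 0.54 when 1 library was left out, with adjusted p from 0.0959 to 0.264. The joint adjusted p among clones ran from 1.41e-06 to 6.15e-05 when 1 library was left out. Of the neighbour genes, 1 (Tnfsf15, -2.17) was called lower against Btbd7 KO. Of the neighbours' PROMPT rows, 1 was called higher without a filter, 1 with DESeq2, 2 against Btbd7 KO and 1 with cell lines as replicates, and 0 to 1 when 1 library was left out (1 without wild-type replicate 2 and 1 without replicate 4). With cell lines as replicates, 3 list genes were called higher and 2 lower, from 3 clones against 2 control lines. When 1 library was left out, 7 to 11 were higher and 20 to 23 lower. The cause of these changes was not tested. Signs turned against Btbd7 KO for Whrn (-0.07), the Gm11216 PROMPT row (-0.82), Fn1 (-0.55), Mmp14 (0.05) and Sox4 (-0.02). With cell lines as replicates they turned for the Gm11216 PROMPT row (-0.28) and Fn1 (-0.13), and with TMM within the PROMPT table for the Tmem268 row (-0.21). When 1 library was left out, Atp6v1g1 ran from -0.02 to 0.05 and Sox4 from -0.05 to 0.33. Of the other values of single genes and rows, 678 kept their side of the threshold, 9 lost and 11 gained a call. Over all genes, 2474 were called higher and 3046 lower (44.8% higher), against 3229 and 2005 (61.7%) without TMM, 3176 and 2517 (55.8%) with DESeq2 and 927 and 165 (84.9%) with cell lines as replicates. In PROMPT rows the share called higher was 92.3%, and 58% with TMM within that table. Replicate numbers did not pair the libraries: 40 same-numbered pairs correlated at -0.06 to 0.09, and 5 of 20 libraries matched their own number best. With the replicate block, Tnc stood at -5.63 in the clones and 0.47 in Btbd7 KO (adjusted p = 0.133), the joint adjusted p was 3.45e-05, and 2503 genes were called higher and 2973 lower. The permutation test of the Tnc PROMPT row has no form with a filter, DESeq2 or a block, and is uninformative at these counts. Depth limits the low genes: a floor of 3 counts is 0.171 to 0.434 CPM.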
